A study of Homo sapiens with 3 samples.

Results

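FGA, FGB and FGG encode the Aα, Bβ and γ chains of fibrinogen, the soluble plasma protein that thrombin turns into fibrin. They are 3 of the 18692 gene symbols with values in this series, taken by name from the count tables, and were selected on their summed UMI levels and positive cells in these same libraries. Their levels, their positive cells and their joint detection are therefore given as descriptions, with no test. The study profiled single cells of H460, an established human large-cell lung carcinoma line, and of its derivatives mdR-H460 and ldR-H460, which the labels call mid-term and long-term dR-H460. The series title concerns multi-drug resistance in a model of reprogrammed cancer cells. The labels' growth protocol describes gamma-irradiated human fibroblasts as a feeder layer and Pluriton medium conditioned by such fibroblasts. Each culture gave 1 library of droplet-based single-cell RNA counts from transcript 3′ ends, so no difference below has a replicate check. The intervals given are 95% counting intervals and cover counting error only. The sources used here do not give how the derivatives differ in treatment or what time each stands for.

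Each fibrinogen molecule holds a pair of Aα, Bβ and γ chains joined by disulfide bonds, and all the chains are needed for its assembly in the endoplasmic reticulum. Hepatocytes are the main source of the plasma protein. The genes lie side by side and belong to the acute-phase genes, which in liver cells respond to interleukin-6 through STAT3 and to glucocorticoids, with C/EBP factors also acting at their promoters. Fibrinogen made by lung epithelial cells is also known, and in lung it likewise responds to interleukin-6 and glucocorticoids.

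On GRCh38 (GENCODE 29) the 3 genes occupy 50012 bases of chromosome 4, from the start of FGB to the end of FGG. FGB lies at chr4:154562956-154571086 on the plus strand, FGA at chr4:154583126-154590766 on the minus strand and FGG at chr4:154604134-154612967 on the minus strand. The 250 bases before each RefSeq transcription start (GRCh38.p14) are printed because all 3 genes differed in the same direction between mdR-H460 and each other library, and these windows are where shared short motifs can be compared. Capitals mark the letters CTGGGA, the core of the interleukin-6 response element, on either strand. On the reverse strand it reads TCCCAG. The windows are chr4:154590743-154590992 (minus strand) for FGA, chr4:154562730-154562979 (plus strand) for FGB and chr4:154612657-154612906 (minus strand) for FGG.
FGA: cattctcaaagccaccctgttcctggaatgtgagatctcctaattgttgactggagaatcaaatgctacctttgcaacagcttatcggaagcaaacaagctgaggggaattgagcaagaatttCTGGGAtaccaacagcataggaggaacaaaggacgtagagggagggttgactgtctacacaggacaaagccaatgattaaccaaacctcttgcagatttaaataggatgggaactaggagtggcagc
FGB: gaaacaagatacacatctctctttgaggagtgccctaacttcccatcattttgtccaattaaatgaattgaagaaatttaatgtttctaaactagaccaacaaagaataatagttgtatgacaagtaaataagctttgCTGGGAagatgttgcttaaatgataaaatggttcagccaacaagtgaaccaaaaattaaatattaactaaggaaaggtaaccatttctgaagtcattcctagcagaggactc
FGG: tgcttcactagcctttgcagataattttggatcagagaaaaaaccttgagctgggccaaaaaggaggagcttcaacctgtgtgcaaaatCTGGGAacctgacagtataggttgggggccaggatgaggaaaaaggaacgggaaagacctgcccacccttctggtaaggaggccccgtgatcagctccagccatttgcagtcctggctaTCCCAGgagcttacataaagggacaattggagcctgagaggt

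CTGGGA stood in all 3 windows, beginning 127 bases before the start of FGA, 112 before that of FGB and 161 before that of FGG, where a reverse-strand copy began 42 bases before the start. Of 34943 RefSeq windows of the same length, 28.7% held CTGGGA on either strand. CCAAT, the box bound by NF-Y, was in all 3 windows and in 32.0% of all windows, and TATAAA was in none of the 3 and in 10.8% of all. No match overlapped another in these windows. GENCODE 29 begins each of the genes upstream of the RefSeq start, so the ends of the FGA and FGB windows and the whole FGG window fall inside the GENCODE gene. A match of letters describes the sequence and is not evidence of binding.

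The libraries held 4531, 5151 and 4956 cells for H460, for mdR-H460 and for ldR-H460, with 66192074, 66624830 and 60468481 UMIs (unique molecular identifiers, each standing for 1 captured transcript). The median cell had 14685, 11736 and 12342.5 UMIs in the same order. Between 24 and 36 cell barcodes were shared by each pair of libraries, and 0 by all 3. The epithelial keratin genes KRT8 and KRT18 were at 459 to 625 CPM and 1079 to 1755 CPM (counts per 1000000 UMIs of the library). KRT19, a further epithelial keratin gene, was at 1696, 194 and 40.3 CPM in H460, in mdR-H460 and in ldR-H460. The epithelial adhesion gene EPCAM had 8 to 23 UMIs per library and CDH1 was not listed in any table. The 6 epithelial markers summed to 3292, 2759 and 1846 CPM in the same order of libraries. Of 9 hepatocyte markers, 2, 3 and 2 had a UMI in H460, in mdR-H460 and in ldR-H460, summing to 0.529, 1.47 and 1.11 CPM, and the defining marker ALB was not listed in any table. The 10 fibroblast markers, listed for the feeder cells, summed to 11.1, 3.06 and 4.68 CPM, with the collagen gene COL1A1 at 2.73, 2.16 and 1.14 CPM. They were lowest in mdR-H460, and the part of feeder cells in the values below was not tested.

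All 3 fibrinogen genes were highest in mdR-H460. FGG had 1939 UMIs in H460, 15522 in mdR-H460 and 735 in ldR-H460, or 29.3 CPM (28.0 to 30.6), 233 CPM (229 to 237) and 12.2 CPM (11.3 to 13.1). FGA had 81, 3749 and 465 UMIs in the same order, or 1.22 CPM (0.972 to 1.52), 56.3 CPM (54.5 to 58.1) and 7.69 CPM (7.01 to 8.42). FGB had 396, 2189 and 395 UMIs, or 5.98 CPM (5.41 to 6.60), 32.9 CPM (31.5 to 34.3) and 6.53 CPM (5.90 to 7.21). For FGA and FGG no 2 of the 3 intervals overlapped, whereas the FGB intervals of ldR-H460 and H460 overlapped. A UMI is counted once per transcript end, so these levels were not divided by gene length, and how well each transcript is captured was not tested.

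**Figure D1:**
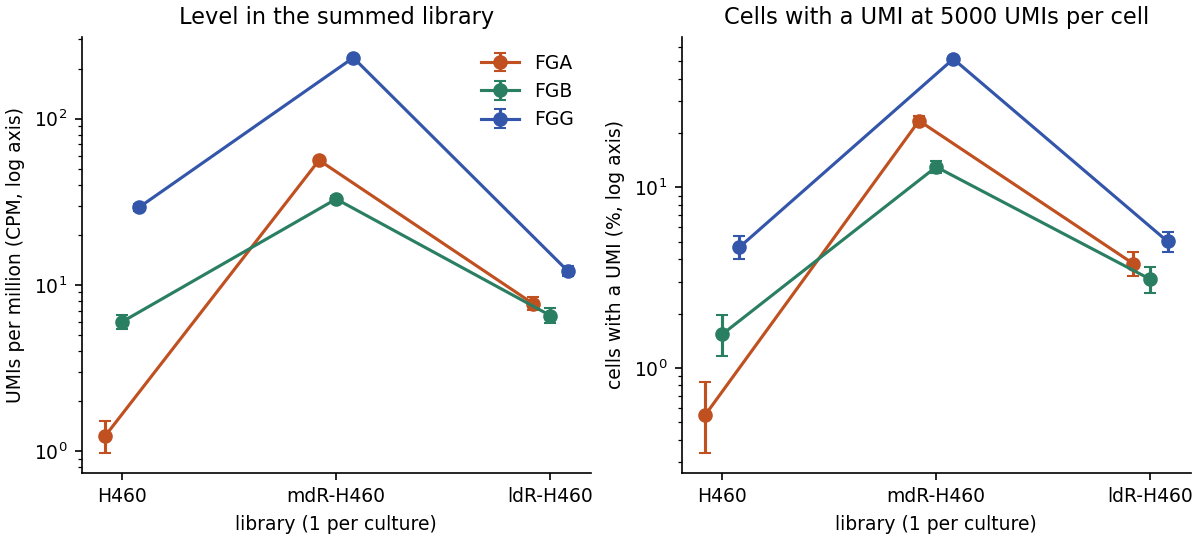
Levels of FGA, FGB and FGG in the summed libraries (left, CPM, log axis) and percent of cells with a UMI of each gene after thinning every cell to 5000 UMIs (right, log axis), with 95% counting intervals, 1 library per culture. All 3 genes peaked in mdR-H460, and FGA, lowest of the 3 in H460 at 1.22 CPM, stood above FGB in mdR-H460 at 56.3 CPM.

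Against H460, mdR-H460 had 46.0-fold more FGA (36.9 to 58.0), 7.95-fold more FGG (7.59 to 8.34) and 5.49-fold more FGB (4.93 to 6.13). All 3 members were thus at least 2-fold higher, and none was lower. Of the 12002 genes that reached 1 CPM in mdR-H460 or H460, 2.9% were at least 2-fold higher and 10.1% lower. By ratio FGA ranked 10, FGG 56 and FGB 85 from the highest. In ldR-H460 against mdR-H460 all 3 were at least 2-fold lower and none was higher, beside 4.42% and 5.14% of 11799 genes. FGG was 19.2-fold lower (17.8 to 20.7), FGA 7.32-fold lower (6.64 to 8.07) and FGB 5.03-fold lower (4.52 to 5.61). Since mdR-H460 entered both contrasts, they are not independent of each other.

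Set against the parental line, ldR-H460 left the 3 genes in different places. FGA was 6.28-fold higher than in H460 (4.95 to 8.06), FGB was 1.09-fold of its level (0.947 to 1.26) and FGG was 2.41-fold lower (2.21 to 2.63). Thus 1 member was at least 2-fold higher, beside 5.43% of 12151 genes, and 1 at least 2-fold lower, beside 10.9%. The median log2 ratio of all these genes was -0.17 for mdR-H460 over H460, -0.13 for ldR-H460 over H460 and 0.08 for ldR-H460 over mdR-H460. The TMM scaling factors of edgeR shifted every log2 ratio by 0.18, 0.12 and -0.07 in the same order.

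The make-up of the fibrinogen transcripts changed along with their sum, which was 36.5 CPM in H460, 322 CPM in mdR-H460 and 26.4 CPM in ldR-H460. FGG, the γ chain gene, supplied 80.3% of fibrinogen UMIs in H460 (78.6 to 81.8), 72.3% in mdR-H460 (71.7 to 72.9) and 46.1% in ldR-H460 (43.6 to 48.6). FGA, the Aα chain gene, supplied 3.35% (2.67 to 4.15), 17.5% (17.0 to 18.0) and 29.2% (26.9 to 31.5). FGB, the Bβ chain gene, supplied 16.4% (14.9 to 17.9), 10.2% (9.80 to 10.6) and 24.8% (22.7 to 27.0). Along the series the FGG share was lower and the FGA share higher in each library than in the one before it, with no overlap of the intervals. FGB had its lowest share in mdR-H460, where its CPM was highest.

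Shares of cells were compared after each cell had been thinned at random to 5000 UMIs, which left 3850, 3880 and 4521 cells for H460, for mdR-H460 and for ldR-H460 and set aside 681, 1271 and 435 shallower ones. A UMI of FGG was found in 4.65% of these cells in H460 (4.01 to 5.36), 51.5% in mdR-H460 (49.9 to 53.1) and 5.02% in ldR-H460 (4.40 to 5.70). A UMI of FGA was found in 0.545% (0.338 to 0.833), 23.4% (22.1 to 24.8) and 3.78% (3.25 to 4.38). A UMI of FGB was found in 1.53% (1.17 to 1.97), 13% (11.9 to 14.1) and 3.10% (2.61 to 3.64). Each gene was thus seen in its largest share of cells in mdR-H460, and in ldR-H460 FGA and FGB were seen in more cells than in H460 while the FGG intervals overlapped. Without thinning, the shares in H460, in mdR-H460 and in ldR-H460 were 6.80%, 63.4% and 9.36% for FGG, 0.839%, 38.5% and 7.30% for FGA, and 3.69%, 22.2% and 5.71% for FGB.

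No cell type that should lack fibrinogen was present for measuring background from free RNA. Barcodes with under 1000 UMIs gave 64.9 CPM of FGG in H460 (11 UMIs, 32.4 to 116), 214 CPM in mdR-H460 (57 UMIs, 162 to 277) and 37.8 CPM in ldR-H460 (4 UMIs, 10.3 to 96.7). The part of free RNA in the low shares was not tested. Leaving these barcodes out gave 29.2, 233 and 12.1 CPM of FGG in H460, in mdR-H460 and in ldR-H460.

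Cells with a UMI differed in how many they held. FGG averaged 3.21 thinned UMIs per positive cell in H460, 2.86 in mdR-H460 and 1.33 in ldR-H460. The highest cell had 32, 52 and 7 thinned FGG UMIs in the same order, and 131, 90 and 19 UMIs before thinning. Cells with 10 or more thinned FGG UMIs numbered 11 in H460, 90 in mdR-H460 and 0 in ldR-H460. The intervals of the FGG-positive share overlapped between ldR-H460 and H460 at 1 or more thinned UMIs. With 2 or more thinned UMIs the share was 0.907% in ldR-H460 (0.652 to 1.23) and 2.49% in H460 (2.02 to 3.04). Without thinning, at 1 or more UMIs, it was 9.36% in ldR-H460 (8.57 to 10.2) and 6.80% in H460 (6.08 to 7.57), so which library had the larger share depended on how cells were counted. In mdR-H460 against H460 the share of positive cells was larger and the UMIs per positive cell were fewer.

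The 1% of thinned cells with most FGG held 60.8% of its UMIs in H460, 14.4% in mdR-H460 and 39.9% in ldR-H460. For FGB, the same share of cells held 76.9%, 27.9% and 42.4%, and for FGA 100.0%, 12.9% and 36.0%. The 100.0% was fixed in advance, because FGA had a UMI in 0.545% of thinned H460 cells. FGA was at or under 1.43 UMIs per positive cell in all 3 libraries and FGB at or under 1.54, so most of their positive cells had a single UMI. FGG in H460 combined a low share of positive cells with several UMIs in each.

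To see whether the chains occurred in the same cells, thinned cells were sorted by the number of fibrinogen genes with a UMI. No chain was detected in 94.2% of H460 cells, 36.8% of mdR-H460 cells and 89.6% of ldR-H460 cells. Exactly 1 chain was detected in 4.96%, 41.9% and 9.0%, and 2 chains in 0.727%, 18.1% and 1.35%. All 3 chains were detected in 4 H460 cells, 127 mdR-H460 cells (3.27%, 2.74 to 3.88) and 3 ldR-H460 cells. Cells with 2 chains or more held most fibrinogen UMIs in mdR-H460, with 43.5% in cells with 2 chains and 17.4% in cells with 3. At 5000 UMIs per cell a chain at these levels is often missed, so a cell with 1 chain detected is not shown to lack the others.

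**Figure D2:**
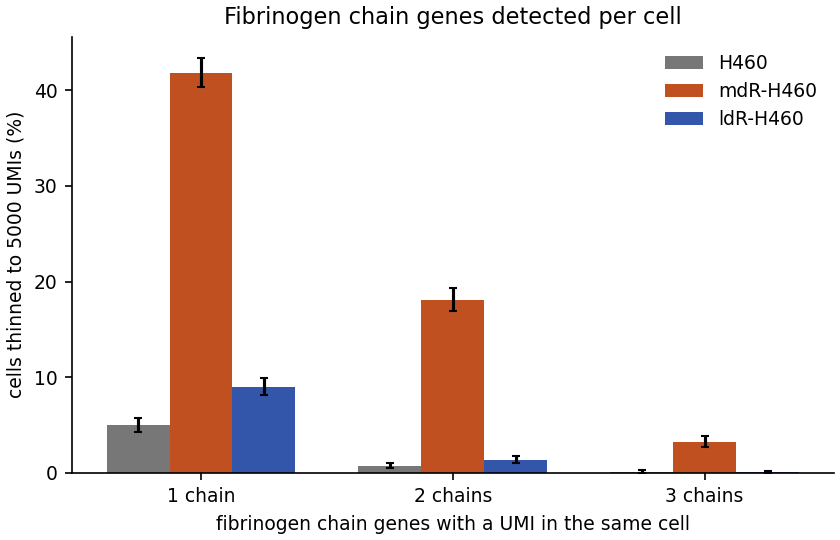
Percent of cells, thinned to 5000 UMIs each, in which 1, 2 or 3 of the fibrinogen chain genes had a UMI, by library, with exact 95% intervals. In mdR-H460 41.9%, 18.1% and 3.27% of cells had 1, 2 and 3 chains, and each bar stood above those of H460 and ldR-H460.

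The chains were found together more often than independent detection within a library would give. In mdR-H460, FGG and FGA shared 606 cells where 467 would follow from their shares, a ratio of 1.30, and the ratio was 1.21 for FGG with FGB and 1.37 for FGB with FGA. In ldR-H460 the ratios were 3.26 (28 cells), 2.99 (21 cells) and 3.97 (21 cells) for the same pairs. In H460 they were 17.4 (17 cells), 6.93 (19 cells) and 12.4 (4 cells). Where a gene is detected in many cells, as in mdR-H460, the ratio is bounded by that share and cannot be set beside those of the other libraries. In H460, 9.50% of FGG-positive cells had FGA (5.63 to 14.8) and 0.109% of FGG-negative cells did (0.0297 to 0.279). In mdR-H460 the shares were 30.3% (28.3 to 32.4) and 16.0% (14.4 to 17.8), and in ldR-H460 12.3% (8.36 to 17.3) and 3.33% (2.81 to 3.91).

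Sorting cells by their depth before thinning, by their cell cycle phase or by cluster left an excess, which was smaller in mdR-H460 and ldR-H460. The FGG and FGA ratio in mdR-H460 was 1.25 within 10 depth bins, 1.22 within phases and 1.20 within clusters. In ldR-H460 it was 3.08, 3.04 and 2.70, and in H460 it was 16.6, 17.3 and 17.1. Within clusters the ratio of FGG with FGB was 7.02 in H460, 1.13 in mdR-H460 and 2.29 in ldR-H460. That of FGB with FGA was 12.8, 1.25 and 3.49 in the same order. Pearson's r of FGG with FGA over cells, on log2 of 1 plus thinned UMIs, was 0.41 in H460, 0.32 in mdR-H460 and 0.13 in ldR-H460. For FGG with FGB it was 0.31, 0.22 and 0.12, and for FGB with FGA 0.17, 0.15 and 0.11. These cells share a library and a thinned depth, and r in sparse counts moves with the share of positive cells.

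In H460 fibrinogen UMIs were over-represented in cells with UMIs of S100A8, which encodes a subunit of the calcium-binding alarmin calprotectin. The 345 H460 cells with an S100A8 UMI were 7.61% of cells and held 9.19% of all UMIs, yet they held 70.4% of FGA UMIs (59.2 to 80.0), 53.0% of FGG UMIs (50.8 to 55.3) and 38.9% of FGB UMIs (34.1 to 43.9). FGG was at 169 CPM in cells with S100A8 and 15.2 CPM in cells without, 11.2-fold apart (10.2 to 12.2). FGA was at 9.37 CPM in cells with S100A8 and 0.399 CPM in cells without, and FGB at 25.3 CPM and 4.03 CPM in the same order. Joint detection of S100A8 and FGG in thinned H460 cells was 6.09 times that of independent detection, and 5.96 times within depth bins. Without cells that had an S100A8 UMI, the H460 ratio of joint to independent detection was 24.8 for FGG with FGA. It was 4.42 for FGG with FGB and 0 for FGB with FGA. In all thinned H460 cells these ratios were 17.4, 6.93 and 12.4, the last from 4 cells.

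In mdR-H460, where 921 cells (17.9%) had an S100A8 UMI, this link was not seen. FGG was at 237 CPM in cells with S100A8 and 232 CPM in cells without, a ratio of 1.03 (0.988 to 1.06). FGA had a ratio of 0.941 (0.870 to 1.02) and FGB one of 0.854 (0.769 to 0.948). In ldR-H460 S100A8 UMIs were found in 5 cells, which held 13 UMIs of FGG, 10 of FGB and 2 of FGA. FGG was at 201 CPM in these cells and 12 CPM in cells without S100A8, a ratio of 16.8 (8.91 to 28.9), with a ratio of 24.3 for FGB (11.5 to 45.1) and 4.03 for FGA (0.487 to 14.7). These ratios rest on 5 cells, and their intervals cover counting error only. When cells with S100A8 were left out of every library, the log2 ratio of mdR-H460 over H460 became 7.16 for FGA, 3.93 for FGG and 3.08 for FGB, beside 5.52, 2.99 and 2.46 in all cells. The log2 ratio of FGG in ldR-H460 over H460 became -0.34, beside -1.27 in all cells. Without these cells FGG in ldR-H460 was thus 1.27-fold below H460, beside 2.41-fold in all cells.

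**Figure D3:**
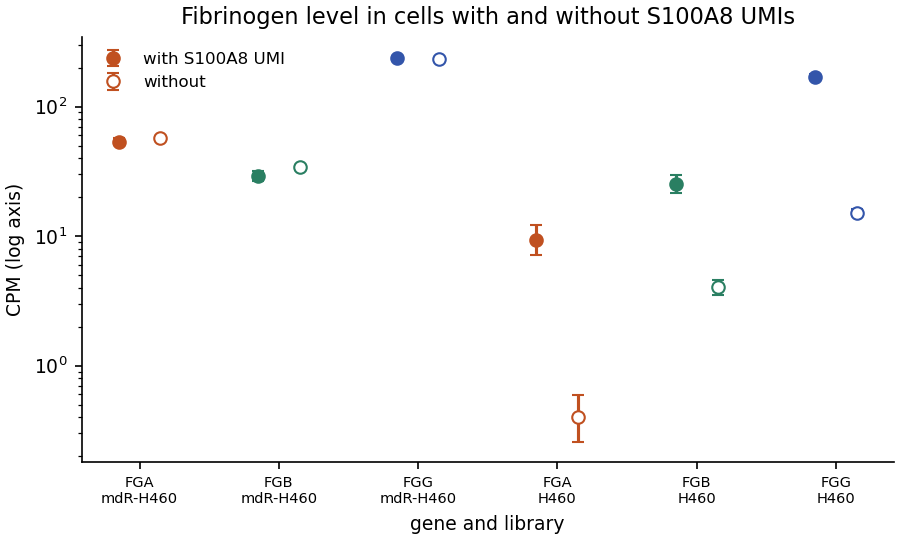
CPM (log axis) of FGA, FGB and FGG in cells with an S100A8 UMI (filled) and without one (open) in mdR-H460 and H460, with 95% counting intervals. The filled and open points lie close together in mdR-H460 (237 and 232 CPM for FGG) and far apart in H460 (169 and 15.2 CPM for FGG).

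Cell cycle phase, called per thinned cell from lists of S phase and G2/M genes, went with the fibrinogen level in both derivatives. In mdR-H460 FGG was at 533 CPM in cells called G1 (515 to 551), 190 CPM in S (179 to 201) and 152 CPM in G2/M (143 to 161). FGA was at 102, 48.3 and 42.7 CPM and FGB at 65.9, 28.5 and 24.1 CPM in the same phases. Cells called G1 were thus above cells called G2/M by 3.50-fold for FGG (3.27 to 3.76), 2.39-fold for FGA (2.09 to 2.75) and 2.73-fold for FGB (2.28 to 3.28). In ldR-H460 the same ratios were 2.93 (2.22 to 3.87), 1.58 (1.08 to 2.29) and 2.24 (1.51 to 3.31). In H460 they were 1.26 (1.01 to 1.58), 1.29 (0.489 to 3.79) and 0.670 (0.385 to 1.17). FGA and FGB thus showed no difference beyond counting error there. A UMI of FGG was found in 4.79% of H460 cells called G1 (3.72 to 6.06), 4.52% in S (3.56 to 5.65) and 4.67% in G2/M (3.37 to 6.28), with overlapping intervals.

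**Figure D4:**
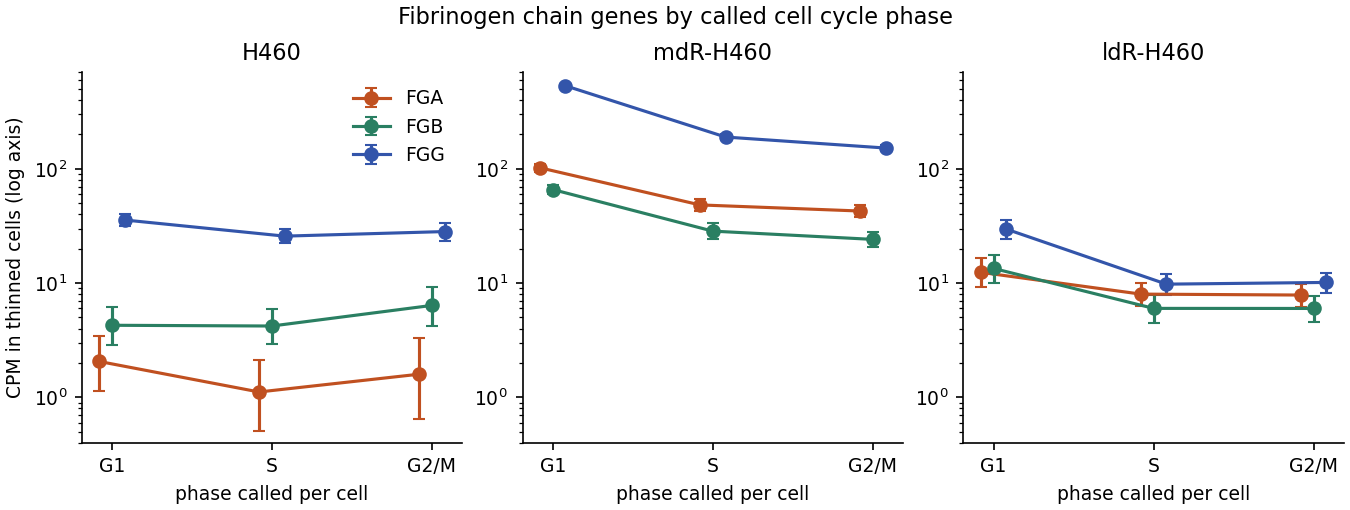
CPM (log axis) of FGA, FGB and FGG in thinned cells called G1, S or G2/M, 1 panel per library, with 95% counting intervals. In mdR-H460 FGG stood at 533 CPM in G1 and 152 CPM in G2/M, in ldR-H460 at 29.7 and 10.1 CPM, and in H460 at 35.7 and 28.2 CPM.

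The share of thinned cells called G1 was 35.2% in H460, 34.6% in mdR-H460 and 17.5% in ldR-H460. Among G1 cells, mdR-H460 had 14.9-fold more FGG than H460 (13.1 to 17.1), 49.5-fold more FGA (29.3 to 91.0) and 15.4-fold more FGB (10.6 to 23.3). Among G2/M cells the folds were 5.38 (4.47 to 6.54), 26.8 (12.8 to 67.2) and 3.78 (2.53 to 5.86). The higher level in mdR-H460 was therefore present in every phase. The H460 cells called G1 held 242 thinned UMIs of FGG, 14 of FGA and 29 of FGB. Those called G2/M held 124, 7 and 28 in the same order of genes, so the FGA and FGB folds rest on few UMIs. In G1 cells of ldR-H460, FGB was 3.14-fold above H460 (1.96 to 5.13) and FGG 0.832 of the H460 level (0.661 to 1.04). In S phase cells FGB was 1.43-fold (0.912 to 2.26) and FGG 0.380-fold (0.293 to 0.490) the H460 level, and in G2/M cells FGB was 0.940-fold (0.589 to 1.53) and FGG 0.359-fold (0.272 to 0.471). The FGB interval was thus above 1 in G1 cells and included 1 in the other phases. In H460 the G1 value came from 16 cells with a UMI of FGB, and a difference between phases was not tested. Over all cells those ratios were 1.09 for FGB and 0.415 for FGG. Phase calls also read free RNA, whose part was not tested.

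Clusters made without the 3 genes, over all cells and without batch correction, placed the fibrinogen UMIs as follows. In mdR-H460 1745 cells fell in a cluster whose leading genes were FGG, GDF15 and FGA, where 82.2% of its thinned cells were called G1. They held 50.0% of the library's FGG UMIs at 443 CPM (433 to 453). In a cluster led by S100A2 and the mitotic cyclin gene CCNB1, with 3.75% of thinned cells called G1, 2480 mdR-H460 cells had 145 CPM of FGG (141 to 148). A further 161 mdR-H460 cells in a cluster led by HSPA6, C11orf96 and DDIT3, of which HSPA6 and DDIT3 are stress genes, had 668 CPM of FGG (621 to 718), whereas 70 H460 cells of that cluster had 10.9 CPM. In ldR-H460 690 cells of a cluster led by ANKRD1, IGFBP7 and FN1, with 76.9% called G1, had 30.3 CPM of FGG (26.2 to 34.9), and the 3944 cells of the largest ldR-H460 cluster had 9.11 CPM (8.32 to 9.96). In H460 97.2% of FGG UMIs lay in the cluster of 3999 cells that held most of the library. The clusters followed the libraries closely and were given no cell type names.

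The genes most like FGG over cells were ranked by Pearson's r within each library, among genes seen in at least 5% of thinned cells, and r was taken over 3850 to 4521 cells. In H460 the highest were SLPI (0.33), a secreted protease inhibitor, the calprotectin genes S100A9 (0.32) and S100A8 (0.31), and PI3 (0.19), which encodes the elastase inhibitor elafin. Without cells that had an S100A8 UMI, r was 0.13 for S100A9 and 0.27 for SLPI, and Spearman's rho over all these cells was 0.23 for S100A9, 0.27 for SLPI and 0.27 for S100A8. The 4 genes were followed by TMSB4X, TFPI2, CLEC11A, HVCN1, CYBA and SPP1, at 0.18 to 0.13. In mdR-H460 they were CD63 (0.39), a tetraspanin, SERPINE2 (0.37), a protease inhibitor, QPCT (0.37), a glutaminyl cyclase, and the galectin gene LGALS3 (0.35). TGFBI, B2M, FGA, TMSB4X, FN1 and S100A6 followed at 0.35 to 0.30, with FGA in rank 7 and FGB in rank 41 (r of 0.22). In H460 and ldR-H460, FGA and FGB were seen in under 5% of thinned cells and so were not ranked. Their r there was 0.41 and 0.31 in H460, and 0.13 and 0.12 in ldR-H460. In ldR-H460 no ranked gene exceeded 0.135, the value of LGALS3 and SLPI, which in counts this sparse is weak. S100A8, unranked there at 0.0664% of thinned cells, had r of 0.15.

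SLPI was in rank 1 in H460, rank 12 in mdR-H460 (0.29) and rank 2 in ldR-H460, whereas S100A8 and S100A9 had r of 0.03 and 0.02 in mdR-H460. TMSB4X, which encodes an actin-binding thymosin, was among the 10 highest in each library. The lowest r in mdR-H460 belonged to PTMA (-0.35), H2AFZ (-0.30), FABP5 (-0.28), HMGB1 (-0.28) and KIAA0101 (-0.28), genes of which H2AFZ, HMGB1 and KIAA0101 encode chromatin or replication proteins. H2AFZ was also lowest in ldR-H460 (-0.12). Among 5141 genes ranked in all 3 libraries, 10 had r above 0.1 in H460, 228 in mdR-H460 and 5 in ldR-H460. Of the 10 in H460, 9 were also above 0.1 in mdR-H460. S100A8, S100A9 and PI3 were not ranked in ldR-H460 and are outside the 5141. FGG was seen in 4.65%, 51.5% and 5.02% of thinned cells in H460, in mdR-H460 and in ldR-H460. Since r in sparse counts moves with that share, these counts of genes cannot be set beside each other.

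**Figure D5:**
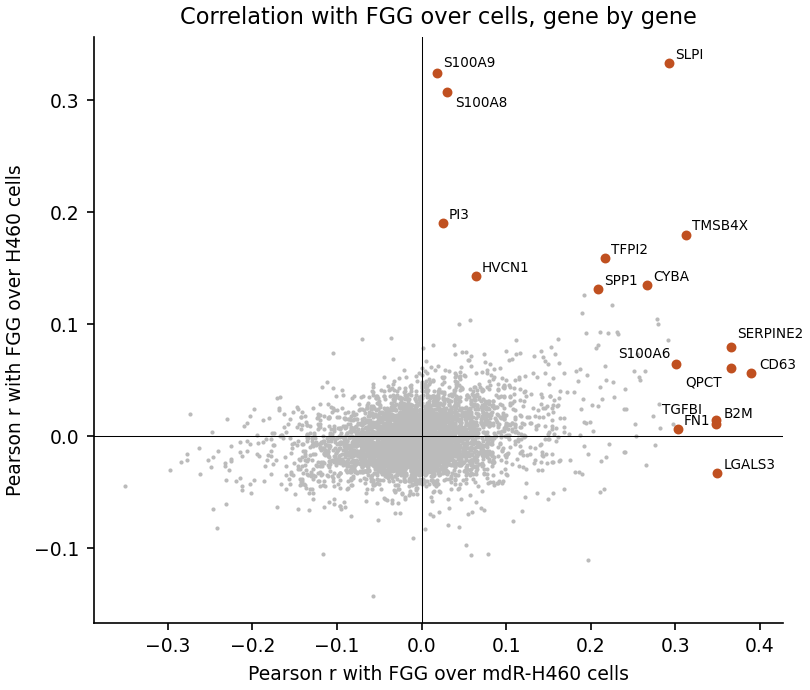
Pearson's r of each gene with FGG over cells of mdR-H460 (horizontal) and of H460 (vertical), 1 point per gene seen in at least 5% of thinned cells of both libraries, with the 10 highest genes of either library named where they are not fibrinogen genes. SLPI and TMSB4X lie high on both axes, S100A8 and S100A9 on the H460 axis and CD63, LGALS3 and B2M on the mdR-H460 axis.

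The genes beside the fibrinogen cluster had other levels. PLRG1, a spliceosome gene next to FGB at chr4:154535006-154550435, was at 17.1 CPM in H460, 26.7 CPM in mdR-H460 and 12.4 CPM in ldR-H460. It was 1.55-fold higher in mdR-H460 than in H460 (1.44 to 1.68), so the libraries had the same order as for FGG with a smaller difference. LRAT, the retinol acyltransferase gene on the side of FGG, was at 0.559, 0.285 and 0.215 CPM, and the next coding genes outward, DCHS2 and RBM46, had 0 UMIs in each library. Of 16 genes on this stretch of 4q, 6 were at 1 CPM or more in mdR-H460 or H460, of which 0 were at least 2-fold higher in mdR-H460 and 2 lower, beside 2.9% higher and 10.1% lower of all genes. Their median log2 ratio was -0.57, beside -0.17 for all genes, and it was -0.01 over the 4 genes that reached 10 CPM, of which 0 were lower. The all-gene values are for genes at 1 CPM or more, and none was computed at 10 CPM. TDO2, the tryptophan dioxygenase gene, was at 6.41, 2.16 and 0.562 CPM in H460, in mdR-H460 and in ldR-H460.

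Most genes of the interleukin-6 pathway differed by less than 2-fold between mdR-H460 and H460. Of 21 measured members (1 CPM or more in either library), 1 was at least 2-fold higher and 5 lower in mdR-H460 against H460, beside 2.9% higher and 10.1% lower of all genes. The median log2 ratio was -0.47, beside -0.17 for all genes. IL6 itself was at 166 CPM in H460, 53.6 CPM in mdR-H460 and 9.05 CPM in ldR-H460. SOCS3, a feedback inhibitor that STAT3 induces, was at 29.5, 9.32 and 7.95 CPM, and STAT3 at 11.2, 7.92 and 6.55 CPM. The receptor genes IL6R and IL6ST were at 2.76, 2.99 and 1.57 CPM and at 27.0, 32.9 and 33.0 CPM. The member that was higher was IL11, a cytokine that signals through the same IL6ST chain, with 0.680 CPM in H460, 20.1 CPM in mdR-H460 and 0.364 CPM in ldR-H460. In mdR-H460 over H460 it was 29.6-fold higher (22.0 to 40.8). Among the 5 lower members, OSM, a further cytokine gene of this list, had 120, 0 and 8 UMIs in H460, in mdR-H460 and in ldR-H460. SOCS1 had 72, 6 and 15 UMIs in the same order.

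Among liver-enriched transcription factors, 8 of 19 list members were measured in mdR-H460 or H460, with 1 at least 2-fold higher, 2 lower and a median log2 ratio of -0.04. Of all genes 2.9% were higher and 10.1% lower, with a median of -0.17. The higher one was CEBPB, at 56.5 CPM in H460, 122 CPM in mdR-H460 and 74.6 CPM in ldR-H460. CEBPD was at 22.3, 31.7 and 46.6 CPM and CEBPA at 3.41, 1.65 and 0.976 CPM. HNF4A and FOXA2 were not listed in any table. NR3C1, the glucocorticoid receptor gene, was at 29, 32.9 and 34.2 CPM. Of 10 measured glucocorticoid-responsive genes, 0 were at least 2-fold higher and 1 lower in mdR-H460 against H460, with a median of -0.45, so that the count of lower members matched the share among all genes. FKBP5 and TSC22D3, direct targets of the receptor, were at 7.55, 5.42 and 12.1 CPM and at 18.4, 9.29 and 4.55 CPM in H460, in mdR-H460 and in ldR-H460.

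Other plasma protein genes of the liver were mostly at 0 or low. Of 39 hepatocyte acute-phase and plasma protein genes, 20 were listed in a table and 6 were measured in mdR-H460 or H460, of which 4 were at least 2-fold higher in mdR-H460 and 0 lower, with a median log2 ratio of 1.72. Of all genes 2.9% were higher and 10.1% lower, with a median of -0.17. C3, the central complement component, was at 1.57, 13 and 9.38 CPM in H460, in mdR-H460 and in ldR-H460, and CP, the copper-binding ferroxidase ceruloplasmin, at 3.99, 13.3 and 6.91 CPM. RBP4, the retinol carrier, was at 1.01, 4.91 and 0.529 CPM. VTN, the adhesion protein vitronectin, was lower, at 8.73, 4.85 and 0.794 CPM. FGL1, a fibrinogen-like hepatocyte gene, had 53 UMIs in mdR-H460 and 0 in both other libraries, which fell under the level required for measurement.

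Genes that act on fibrinogen or fibrin were counted beside all genes, of which 2.9% were higher and 10.1% lower in mdR-H460 against H460, with a median log2 ratio of -0.17. These all-gene values are for genes at 1 CPM or more, and none was computed at 10 CPM. Of 13 measured coagulation and clotting control genes 1 was at least 2-fold higher and 4 lower (median log2 ratio -0.54). Over the 8 of these genes that reached 10 CPM the median was -0.29 and 2 were lower. TGM2, a transglutaminase that can crosslink fibrinogen chains, was at 0.408, 9.77 and 3.52 CPM in H460, in mdR-H460 and in ldR-H460. THBD, the thrombin receptor thrombomodulin, had 415, 21 and 0 UMIs, and SERPIND1, the thrombin inhibitor heparin cofactor, was at 18.1, 3.17 and 1.19 CPM. Of 9 measured fibrinolysis genes 0 were higher and 4 lower (median -0.31, or -1.11 over the 7 genes that reached 10 CPM), among them PLAT, the tissue plasminogen activator, with 924, 13 and 22 UMIs. PLAUR, the urokinase receptor, was at 90.4, 38.0 and 16.3 CPM, and SERPINE2, which also ranked high with FGG over mdR-H460 cells, at 650, 302 and 144 CPM. Of 6 measured fibrinogen-binding receptor genes 1 was higher and 2 lower, with ICAM1, an adhesion receptor, at 0.937, 6.35 and 1.89 CPM.

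The secretory machinery that fibrinogen assembly uses differed little. Of 24 measured chaperone and disulfide genes 0 were at least 2-fold higher or lower in mdR-H460 against H460, with a median log2 ratio of 0.03, beside 2.9% higher and 10.1% lower of all genes. HSPA5, the chaperone BiP, was at 210, 220 and 158 CPM in H460, in mdR-H460 and in ldR-H460. LMAN1 and MCFD2, the cargo receptor pair for clotting factors, were at 110, 109 and 96.9 CPM and at 104, 104 and 77 CPM. Of 4 measured genes with a fibrinogen domain 0 were higher and 2 lower (median -0.91), with TNXB at 3.91, 0.120 and 0.0827 CPM. The calprotectin and secreted defence genes had 1 of 9 measured members higher and 1 lower in mdR-H460 against H460 (median -0.17), and 1 higher and 8 lower in ldR-H460 against H460 (median -2.89), a pair in which 5.43% of all genes were higher and 10.9% lower. SLPI was at 203, 274 and 26.4 CPM and S100A8 at 124, 84.7 and 0.265 CPM in H460, in mdR-H460 and in ldR-H460.

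In ldR-H460 against H460, where FGA was higher and FGG lower, 0 of 20 measured interleukin-6 and STAT3 genes were at least 2-fold higher and 4 lower, beside 5.43% higher and 10.9% lower of all genes. The median log2 ratio was -0.50, beside -0.13 for all genes. Of 13 measured coagulation genes 1 was higher and 7 were lower (median -1.18). Over the 8 that reached 10 CPM, however, the median was -0.38 and 3 were lower. The all-gene shares and median given here are for genes at 1 CPM or more, and none was computed at 10 CPM. Of 6 measured acute-phase and plasma protein genes 2 were higher and 1 was lower (median 0.44). These lists hold few measured genes, and shares near those of all genes are no result about a list. With TMM scaling, the counts of lower members in mdR-H460 against H460 became 4 for the interleukin-6 list and 0 for the liver factor list. They became 3 each for the coagulation and fibrinolysis lists, 0 for the receptor list and 1 for the fibrinogen domain list. Under TMM scaling 897 of the 12002 genes tested in that pair were lower, beside 1218 with library totals. The same scaling turned the median of the liver factor list to 0.14 and that of the calprotectin list to 0.02.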

How the data were processed

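The deposited tables hold raw UMI counts by symbol and by cell, restricted by the authors to cells that passed quality filtering, per the series design text. The most genes seen in a cell were 4987 in H460, 4993 in mdR-H460 and 3998 in ldR-H460. Cells with 4000 genes or more numbered 681, 504 and 0 in the same order. The submitters' processing notes name Cell Ranger 3.0.2, Seurat 3.0 and GRCh38 with no role for any of them. No annotation release is given in the sources used here. Symbols absent from a table were set to 0.

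Counts were summed per library and divided by its total (CPM), with exact Poisson intervals for levels, exact binomial-based intervals for ratios and Clopper-Pearson intervals for shares, at 95%. A floor of 3 UMIs stood for 0 in ratios. Genes reaching 1 CPM in either library of a pair were counted as 2-fold higher or lower by their ratio alone. With 1 library per group no test was run and no p-value given. Cells were thinned to 5000 UMIs with a fixed seed for shares, joint detection, correlations and phases. Clusters (scanpy 1.11.5) used 2000 variable genes without FGA, FGB and FGG, 30 components, 15 neighbours and Leiden resolution 0.5. No doublet caller was run and all cells were kept. Barcodes under 1000 UMIs also stayed in. The counting rule, the intervals of ratios and the thinning were tested on simulated data. For the rule and the intervals these were Poisson counts of summed libraries, which the intervals assume. How the intervals cover UMIs gathered in few cells was not tested.

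The members, gene lists and settings were chosen with earlier results of these data known. Named beside the 3 genes are members of each list with the largest ratios and those the account of the pathway needs, and the 10 genes with the highest r in each library. FGL1, the genes of lowest r and the ranks of SLPI and TMSB4X across libraries were picked after their values were seen. Promoters came from RefSeq for all 3 genes and gene positions from GENCODE 29. Alternatives were TMM factors (edgeR 4.0.16), DESeq2 1.42.0 size factors, other totals, thinning depths and filters. Some genes of the liver factor list are not reported here.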

Additional observations from a re-analysis of the deposited data

How the results depend on the processing

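In the alternatives that follow no log2 ratio of a fibrinogen gene changed sign. Among cells called G2/M, however, FGB in ldR-H460 was 0.940-fold the H460 level (0.589 to 1.53), below 1, and 1.09-fold over all cells. Over the 3 genes and 3 pairs, 61 values stayed within the counting interval of the value for all cells and 29 left it. With TMM and DESeq2 factors mdR-H460 over H460 became 2.64 and 2.63 for FGB and 3.18 and 3.17 for FGG. With equal weight per cell it became 5.99 for FGA, 2.99 for FGB and 3.26 for FGG, and ldR-H460 over H460 became 3.16 for FGA, 0.60 for FGB and -1.08 for FGG. In thinned cells mdR-H460 over H460 became 3.08 for FGB and 3.30 for FGG, ldR-H460 over H460 became 0.63 for FGB and ldR-H460 over mdR-H460 became -4.46 for FGG. With cells under 4000 genes FGB became 2.77 in mdR-H460 over H460, and FGG became -1.45 in ldR-H460 over H460 and -4.39 in ldR-H460 over mdR-H460. Without the 5% of cells with most UMIs FGB became 2.62 in mdR-H460 over H460. The alternatives that follow were chosen after seeing the data. Without S100A8-positive cells mdR-H460 over H460 became 7.16, 3.08 and 3.93 for FGA, FGB and FGG, and ldR-H460 over H460 became 4.26, 0.66 and -0.34. In cells called G1 FGB and FGG became 3.95 and 3.90 in mdR-H460 over H460 and 1.65 and -0.27 in ldR-H460 over H460, and FGA became -3.04 in ldR-H460 over mdR-H460. Leaving out barcodes under 1000 UMIs moved no ratio out of its interval. The cause of these shifts was not tested. Joint detection over independent detection, for FGG with FGA, FGG with FGB and FGB with FGA, was 1.59, 1.5 and 1.89 in mdR-H460 at 2500 UMIs per cell and 2.29, 2.22 and 3.58 when 2 UMIs were required. In H460 the 2 UMI rule gave 35.1, 21.2 and 56.6, and 2500 UMIs gave 15.1 for FGG with FGB and 45.9 for FGB with FGA. For FGB with FGA in H460, the ratio of 12.4 given in the Results became 0 without S100A8-positive cells. In ldR-H460 the 2 UMI rule gave 11.6, 23.2 and 0. These rest on few cells in H460 and ldR-H460. Requiring 10 CPM, which leaves fewer genes tested, gave 117 genes higher and 451 lower in mdR-H460 over H460 (348 and 1218 at 1 CPM), 218 and 523 in ldR-H460 over H460 (660 and 1323) and 159 and 191 in ldR-H460 over mdR-H460 (607 and 522). At 10 CPM 8 list medians moved, among them coagulation in ldR-H460 over H460 (-0.38, beside -1.18) and fibrinolysis in mdR-H460 over H460 (-1.11, beside -0.31). The sign turned for the 4q genes in ldR-H460 over H460 (0.12, beside -0.65) and over mdR-H460 (0.12, beside -0.11), and for liver factors in mdR-H460 over H460 (0.18, beside -0.04). Under this rule or TMM scaling 54 list medians did not move. Of the shares of cells with a UMI, 35 moved and 1 did not under other depths or a 2 UMI rule. Of the r values with FGG 12 moved and 23 did not, with S100A9 in H460 at 0.13 without S100A8-positive cells and 0.23 by Spearman's rho, beside 0.32. Of the shares of UMIs in the 5% of cells with most, 8 moved and 10 did not. Where under 5% of cells had a UMI, as for FGA and FGB in H460, this share was 100% in advance and could not move. Leaving out clusters led by S100A8 was not run, because no cluster had S100A8 as its first gene. No paired analysis was possible because each group has 1 library. With 1 library per group, differences between cultures of one kind cannot be told apart from those between conditions, and FGA in H460 rests on 81 UMIs.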
